A study of Mus musculus with 12 samples.

Results

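The NF-kB genes described here are 3 kinds of regulator in 1 signalling system. They are the subunit genes Nfkb1, Rela, Nfkb2 and Relb, the inhibitors Nfkbia and Tnfaip3, and the ubiquitin ligase gene Birc3. All 7 were chosen by gene symbol, with earlier results of these data known, and all 7 were among the 770 genes of the panel. Each gave enough signal to be tested, as did 677 of the 770 genes. The panel was read in kidney RNA of 12 female mice aged 8 to 10 weeks, 3 in each of 4 groups. WT animals carry functional Aim2 and are F1 littermate controls. KO animals lack Aim2, a cytosolic sensor of double-stranded DNA, and are described as B6. The WT NTS and KO NTS groups had received nephrotoxic serum, whose antibodies bind the basement membrane of glomeruli and induce glomerulonephritis, and were analysed at day 9. The WT control and KO control groups were untreated, and the design text describes them as the baseline. The labels do not say whether both genotypes share the rest of their strain background. Aim2 itself was not analysed here, and its deletion was taken from the labels.

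NF-kB proteins are dimers of Rel family subunits that wait in the cytoplasm, bound to IkB inhibitors. In the canonical pathway, receptors for TNF, interleukin-1 or microbial products activate the IkB kinase complex, the inhibitor IkBα is degraded, and dimers of p50 and RelA enter the nucleus. In the non-canonical pathway, receptors such as CD40 and the lymphotoxin-β receptor let p100 be processed to p52, which pairs with RelB. Several target genes of NF-kB encode its own subunits and inhibitors, which closes feedback loops. In the kidney the system works in tubule cells and endothelium as well as in leukocytes that enter the tissue, and inflamed glomeruli and tubules are a known site of its activity. The panel reads mRNA, so it does not show whether dimers were in the nucleus. In RNA from whole kidney, more or fewer cells of a type cannot be told apart from more or less RNA per cell.

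The 5′ flanks of the members are shown because feedback loops of this kind run through NF-kB sites near start sites. Of the 7 genes, 5 had a sequence in the RefSeq promoter table (GRCm38.p6), with 8 start sites in all. The 250 bases before each start site were searched on both strands for the NF-kB consensus, a 10-base motif with fixed G and C ends. It occurred at 3 of the 5 genes, Nfkb2, Nfkbia and Tnfaip3, and in 5 of the 8 windows, with overlapping matches merged into 1. Start sites 1, 2 and 3 of Nfkb2 were among these 5 windows. In the table as a whole 7.25% of 32851 windows held a match, and 12.6% of 717 windows of panel genes did. These are shares of windows, and the share of genes with a match was not counted. The windows of Rela and Birc3 held none of these letters, which says nothing about binding there. Below, the first listed start site of each of the 3 genes is given 5′ to 3′, ending at the base before the start site, with matches in capitals.
Nfkb2 (chr19:46304487-46304736, plus strand): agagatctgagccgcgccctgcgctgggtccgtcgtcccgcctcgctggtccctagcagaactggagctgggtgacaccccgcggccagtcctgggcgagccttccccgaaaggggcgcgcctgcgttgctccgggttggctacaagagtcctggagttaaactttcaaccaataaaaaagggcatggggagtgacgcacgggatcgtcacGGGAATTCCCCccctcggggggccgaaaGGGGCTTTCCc
Nfkbia (chr12:55492648-55492897, minus strand): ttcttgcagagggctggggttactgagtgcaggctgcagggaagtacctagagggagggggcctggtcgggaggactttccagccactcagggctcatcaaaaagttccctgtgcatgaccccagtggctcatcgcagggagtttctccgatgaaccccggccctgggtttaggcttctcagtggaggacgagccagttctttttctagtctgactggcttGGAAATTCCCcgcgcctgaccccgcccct
Tnfaip3 (chr10:19015411-19015660, minus strand): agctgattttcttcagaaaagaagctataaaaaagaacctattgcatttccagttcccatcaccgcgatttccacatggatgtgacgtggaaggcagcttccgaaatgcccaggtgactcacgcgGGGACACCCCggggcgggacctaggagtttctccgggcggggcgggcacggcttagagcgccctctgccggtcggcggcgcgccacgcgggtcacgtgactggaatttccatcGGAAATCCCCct
The matches began 39 and 11 bases before the start site in Nfkb2, 29 bases before it in Nfkbia, and 125 and 12 bases before it in Tnfaip3.

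Values are the normalized signal that the authors deposited, scaled on 20 housekeeping genes. Because probes differ, levels are compared between samples and never between genes. In counts recovered from each sample's step size, the smallest behind a member's value was 71, with a 95% Poisson interval of 55.5 to 89.6 that covers counting error alone. The kidney identity of the samples could be checked on 2 of 19 listed nephron markers, Egf and Fbp1. Their summed signal was 40896 to 71751 in WT control and 58047 to 66819 in KO control. WT NTS 1 stood apart from the other treated WT kidneys: it had the highest value of its group for all 7 members, and WT NTS 2 the lowest for all 7. The panel as a whole had the same order. The median signal of genes other than the housekeeping genes was 118.9, 66.2 and 88.7 in WT NTS 1, 2 and 3. The share of panel genes highest in WT NTS 1 or lowest in WT NTS 2 was not counted. Several results that rest on WT NTS 1 are given with and without it.

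After nephrotoxic serum all 7 genes rose in KO kidneys, by 1.88-fold (Rela) to 4.28-fold (Relb), on a panel where 48.2% of the genes tested changed and 39.6% rose. In treated kidneys 5 of the 7 were higher in KO than in WT, where 33.5% of genes differed and 31.2% were higher in KO. In WT kidneys 0 of 7 passed the test after serum, where 7.98% of genes did, 5.47% upward. Between untreated kidneys of both genotypes 0 of 7 passed, where 0% of genes did. Tests were made with limma on log2(signal + 1) over all 677 genes, with all 12 samples in the fit and p-values adjusted by the Benjamini-Hochberg method. Fold changes are on that scale.

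**Figure D1:**
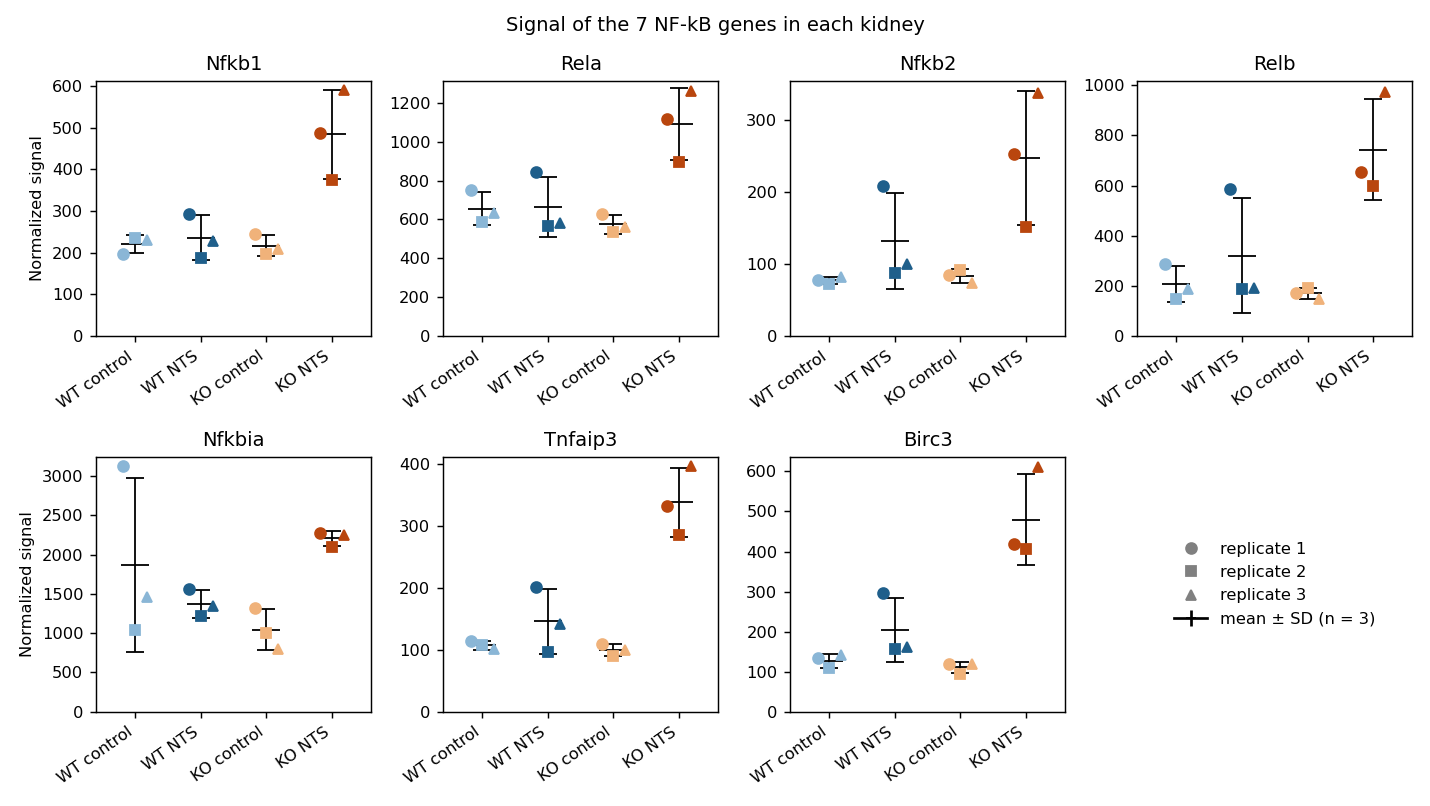
Normalized signal of the 7 genes on linear axes from 0, with 1 symbol per kidney (circle, square and triangle for replicates 1, 2 and 3), and black bars for the mean ± SD of 3. All 3 KO NTS kidneys lie above all 3 KO control kidneys in each of the 7 panels, WT NTS 1 is the highest treated WT kidney in each, and Nfkbia in WT control 1 is the highest value of its panel.

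Nfkb1 encodes p105, the precursor of the p50 subunit of canonical dimers. In the order of the replicate numbers, its signal was 196, 236 and 229 in WT control 1, 2 and 3, 293, 187 and 228 in WT NTS, 244, 196 and 209 in KO control and 487, 376 and 591 in KO NTS. The 3 treated KO kidneys were the highest of the 12, and the other 3 groups overlapped one another. KO control averaged 216 ± 24.97 (SD, n = 3) and KO NTS 484 ± 108, a 2.21-fold rise (log2 change 1.14, SE 0.21, limma adjusted p = 0.00106). Against WT NTS (236 ± 53.7) the KO NTS kidneys were 2.05-fold higher (adjusted p = 0.00577). WT control was at 220.5 ± 21.6, and the log2 change after serum in WT was 0.08 (95% interval -0.39 to 0.54).

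Rela encodes the transactivating subunit p65, the usual partner of p50. Its signal was 749.9, 585 and 632 in WT control, 842, 568 and 580.0 in WT NTS, 628, 533 and 560.4 in KO control and 1116, 895 and 1260.0 in KO NTS. The treated KO kidneys again lay above the other 9, with KO NTS 2 closest to WT NTS 1. Rela rose 1.88-fold in KO kidneys, from 574 ± 48.9 to 1090.4 ± 184 (log2 change 0.91, SE 0.19, adjusted p = 0.00195). This was the smallest of the 7 changes in KO kidneys. The difference between treated KO and treated WT kidneys was 1.65-fold (adjusted p = 0.0124). In WT kidneys the log2 change was 0.00, with a 95% interval of -0.41 to 0.41.

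Nfkb2 encodes p100, which holds RelB inactive until it is processed to p52. Its signal was 77.4, 72.3 and 82.7 in WT control, 209, 87.6 and 99.9 in WT NTS, 84.3, 92.0 and 73.8 in KO control and 253, 152 and 339 in KO NTS. WT NTS 1 lay within the KO NTS range, while WT NTS 2 and 3 were close to the untreated kidneys. In KO kidneys Nfkb2 rose from 83.4 ± 9.12 to 248 ± 93.2 (2.81-fold, log2 change 1.49, SE 0.34, adjusted p = 0.00357). Treated KO and WT kidneys overlapped, with a log2 difference of 0.94 and an adjusted p of 0.0510. The log2 change in WT kidneys was 0.65 (95% interval -0.09 to 1.40, adjusted p = 0.288), and 0.27 without WT NTS 1. Without that kidney the difference between treated KO and WT was 1.32.

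Relb encodes the non-canonical subunit that pairs with p52. Its signal was 288, 147 and 188 in WT control, 585, 188 and 190.1 in WT NTS, 171, 189 and 149 in KO control and 655, 600.3 and 973 in KO NTS. WT NTS 1 was near the lowest KO NTS kidney, and the other treated WT kidneys lay within the WT control range. Relb had the largest fitted change of the 7 in KO kidneys, from 169.6 ± 20.4 to 743 ± 201 (4.28-fold, log2 change 2.10, SE 0.40, adjusted p = 0.00116). It was 2.63-fold higher in KO NTS than in WT NTS (adjusted p = 0.0204). That log2 difference of Relb was 1.39, and 1.94 without WT NTS 1. In WT kidneys its log2 change was 0.46 (95% interval -0.41 to 1.33), and -0.08 without WT NTS 1.

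Nfkbia encodes IkBα, the inhibitor that is degraded on activation and then resynthesised. Its signal was 3128, 1034 and 1458 in WT control, 1563, 1214 and 1339 in WT NTS, 1323, 1003 and 803 in KO control and 2275, 2095 and 2247 in KO NTS. The highest of the 12 values belonged to an untreated animal, WT control 1, and the treated KO kidneys came next. In KO kidneys Nfkbia rose from 1043 ± 262 to 2206 ± 97.2 (2.16-fold, log2 change 1.11, SE 0.32, adjusted p = 0.0135). The treated groups did not overlap, yet the KO over WT difference missed the threshold (log2 0.69, 95% interval -0.01 to 1.39, adjusted p = 0.117). In WT kidneys the log2 change was -0.30 with WT control 1 and 0.15 without it, neither past the threshold.

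Tnfaip3 encodes A20, a ubiquitin-editing enzyme that shuts down signalling upstream of the IkB kinases. Its signal was 114, 107 and 101 in WT control, 201, 95.9 and 143 in WT NTS, 109, 89.8 and 99.8 in KO control and 333, 286 and 397 in KO NTS. The untreated kidneys lay close together, the treated WT kidneys spread from that range upward, and the treated KO kidneys were above all others. Tnfaip3 rose 3.36-fold in KO kidneys, from 99.7 ± 9.84 to 339 ± 55.6 (log2 change 1.75, SE 0.25, adjusted p = 0.000244). In treated kidneys KO exceeded WT by 2.39-fold (adjusted p = 0.00559), and this call held under all 26 alternatives run for it. Some of these could not move the estimate, such as the omission of an untreated kidney or the use of the identical second deposit. In WT kidneys the log2 change was 0.39 (95% interval -0.16 to 0.93), and 0.13 without WT NTS 1.

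Birc3 encodes cIAP2, a ubiquitin ligase of TNF receptor complexes that also helps to keep the kinase NIK of the non-canonical pathway low. Its signal was 133, 108 and 141 in WT control, 296, 156 and 161 in WT NTS, 118, 93.1 and 119.6 in KO control and 419.9, 407 and 611 in KO NTS. Every treated WT kidney lay above every WT control, and every treated KO kidney above every treated WT kidney. In KO kidneys Birc3 rose from 110.3 ± 14.9 to 479 ± 114 (4.27-fold, log2 change 2.09, SE 0.27, adjusted p = 0.000161), the smallest p of the 7. It was 2.40-fold higher in KO NTS than in WT NTS (adjusted p = 0.00584). In WT kidneys the log2 change was 0.62 (unadjusted p = 0.0372, adjusted p = 0.185), which did not pass. Without WT NTS 1 it was 0.32.

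Against the panel, the KO response of the 7 genes was read as follows. All 7 had treated kidneys above all controls without overlap, as did 51.7% of the 677 genes tested. The median log2 change was 1.49 over the 7 and 0.42 over all genes. Relb and Birc3 ranked 57 and 59 of 677 by log2 change, and Rela, the lowest of the 7, ranked 233. In WT kidneys 1 of the 7 had an unadjusted p under 0.05, as did 152 of the 677 genes. Nfkb2 and Birc3 were the 2 of 7 whose WT groups did not overlap, against 19.8% of all genes in either direction. The median log2 change in WT was 0.39 over the 7 and 0.08 over all genes.

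**Figure D2:**
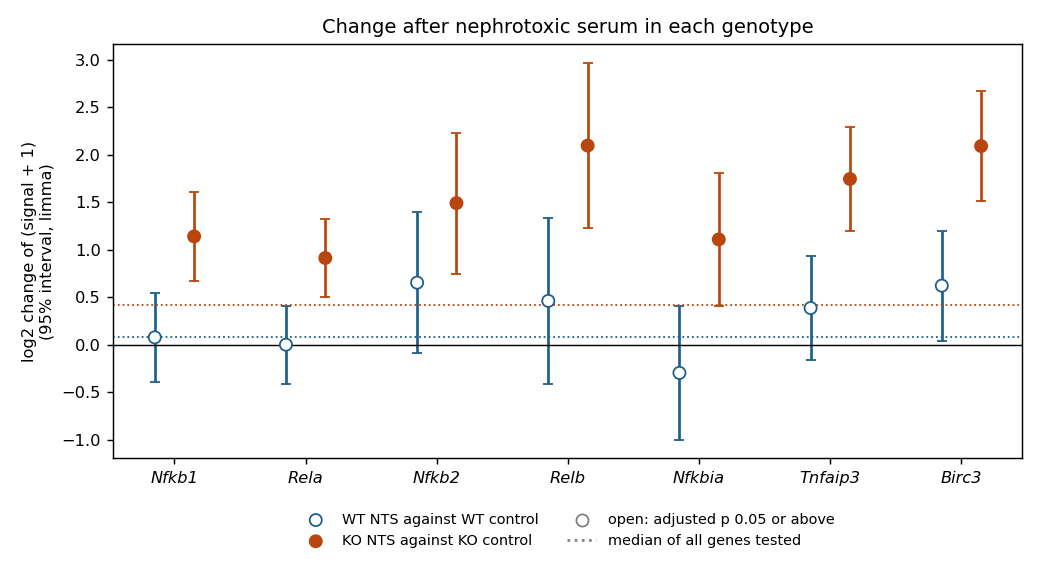
Change in log2(signal + 1) after nephrotoxic serum for each gene, with 95% intervals from limma, in WT (blue) and KO (orange). Filled points passed an adjusted p of 0.05, and dotted lines mark the median of all 677 genes, 0.08 in WT and 0.42 in KO. All 7 KO points are filled, from 0.91 (Rela) to 2.10 (Relb), and all 7 WT points are open, from -0.30 (Nfkbia) to 0.65 (Nfkb2).

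The treated WT kidneys were not alike for Relb, Nfkb2 and Birc3. Relative to the WT control mean, Relb stood at 2.82-fold in WT NTS 1, 0.903-fold in WT NTS 2 and 0.915-fold in WT NTS 3. Relative to the KO control mean, it stood at 3.86-fold, 3.54-fold and 5.74-fold in KO NTS 1, 2 and 3. The same kidney led for Nfkb2, at 2.69-fold in WT NTS 1 against 1.13-fold and 1.29-fold in the others. Birc3 was above the control mean in each treated WT kidney, at 2.32-fold, 1.23-fold and 1.26-fold. Within KO NTS, replicate 3 was the highest for 6 of 7 genes and replicate 2 the lowest for 7 of 7. The median signal of panel genes other than the housekeeping genes was 149.0, 137.1 and 150.1 in KO NTS 1, 2 and 3. How many panel genes had the order of the members was not counted.

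Macrophage markers differed between the same kidneys. The summed signal of the 9 listed macrophage markers on the panel was 2246 in WT NTS 1 and 864 and 1123 in WT NTS 2 and 3. It ranged over 3473 to 4374 in KO NTS, 951 to 1070.2 in WT control and 1071 to 1229.5 in KO control. Of these 9 genes, 7 rose in KO kidneys, 1 rose in WT kidneys and 8 were higher in KO NTS than in WT NTS. Of all genes tested, 39.6% rose in KO kidneys, 5.47% rose in WT kidneys and 31.2% were higher in KO NTS. Ptprc, the pan-leukocyte marker CD45, ranged over 150.2 to 423 in WT NTS and 401 to 599 in KO NTS. It ranged over 82.2 to 220.9 in WT control and 194.8 to 217.9 in KO control. Its log2 difference, KO against WT, was 0.94 in treated and 0.74 in untreated kidneys, and neither passed. The sum of T cell markers over 13 genes was 237 to 359 in WT NTS and 305 to 375 in KO NTS. It was 211 to 296 in WT control and 284 to 337 in KO control. Of the 11 tested genes 1, Cd4, was higher in KO NTS than in WT NTS. The 5 B cell markers summed to at most 123 in any kidney, with Cd79a at the background floor in all KO NTS and all untreated kidneys and Blk in all WT NTS and all untreated ones. Of the 5 neutrophil markers 3 were tested and rose in KO kidneys, and 0 of those 3 passed between the treated groups. Sums over the 5 were 95.03 to 157 in KO control, 249.8 to 361 in KO NTS, 94.3 to 181 in WT control and 122 to 264 in WT NTS. Ly6g was at the floor in all untreated kidneys. The endothelial markers summed to 4960.3 to 5642 in KO control, 2641 to 4535 in KO NTS, 5078 to 5649 in WT control and 3910.1 to 5242 in WT NTS, and the sums of the treated groups overlapped. Of the 5, Cdh5 was higher and Kdr lower in KO NTS than in WT NTS, where 2.36% of all genes were lower. Kdr also fell in KO kidneys after serum, as did 8.57% of all genes. Egf and Fbp1, the tubule markers, summed to 9501 to 17046 in KO NTS and 34343 to 48235 in WT NTS. Both fell in KO kidneys, and Egf fell in WT kidneys. The part of these shifts in the values of the NF-kB genes was not tested.

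Between treated groups, KO against WT, Nfkb1, Rela, Relb, Tnfaip3 and Birc3 passed. In 6 of 7 members the treated groups did not overlap, where 39.1% of genes did so upward. The median log2 difference was 1.04 over the 7 and 0.45 over all genes. The count of members past the threshold, 5 as reported, was 3 without KO NTS 3, without WT NTS 2 or without WT NTS 3, and 6 without WT NTS 1, KO NTS 2 or WT control 1. This comparison and the serum response of KO kidneys use the same KO NTS samples, so their results are not independent.

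Of the 7 members in untreated kidneys, only Nfkbia had an unadjusted p under 0.05 (0.0467, adjusted p = 0.581), as did 57 of the 677 genes in all. Its log2 difference, KO control minus WT control, was -0.71 (95% interval -1.42 to -0.01) and -0.27 without WT control 1. In 0 of 7 the untreated groups lay apart, against 11.7% of all genes. The other 6 had log2 differences from -0.24 (Relb) to 0.10 (Nfkb2). The intervals reached as far as -1.11 for Relb and 0.84 for Nfkb2, so differences up to that size are not excluded.

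Whether the serum response itself differed by genotype was tested as an interaction, the log2 change in KO minus that in WT. For Nfkb1 it was 1.06 (SE 0.30, adjusted p = 0.0459), for Rela 0.91 (adjusted p = 0.0495), for Tnfaip3 1.36 (adjusted p = 0.0356) and for Birc3 1.47 (adjusted p = 0.0356). These 4 of 7 passed, where 10.3% of all genes did, 9.6% with a larger change in KO. Relb had the largest estimate, 1.64, with a larger error (SE 0.57, adjusted p = 0.0795). Nfkbia (1.41, adjusted p = 0.0713) and Nfkb2 (0.84, adjusted p = 0.262) did not pass either. The count depended on single kidneys: it was 7 without WT NTS 1, 4 without KO NTS 2 or WT control 2, and 0 without any 1 of the other 9. In those 9 cases 0 of all genes passed as well. The calls also depended on the scaling: 0 members passed with median centring, on the positive controls or on Tbp alone, and 1 with quantile normalization. Over the 6 scalings the estimates ranged over 0.45 to 1.24 for Nfkb1, 0.30 to 1.09 for Rela, 0.75 to 1.54 for Tnfaip3 and 0.86 to 1.65 for Birc3.

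The size of these differences moved with the scaling of the samples. Of the 20 housekeeping genes, 6 were themselves called in at least 1 comparison, and the median of all genes in KO kidneys moved from 0.42 as deposited to -0.45 with samples centred on the median gene. Over all genes, 268 were called higher and 58 lower in KO kidneys after serum as deposited, 116 and 302 with median centring, 158 and 211 with quantile normalization, and 270 and 18 on the positive controls. For KO NTS against WT NTS the split was 211 to 16 as deposited, 63 to 160 with median centring and 87 to 97 with quantile normalization. For WT kidneys after serum it was 37 to 17 as deposited, 35 to 51 with median centring, 34 to 3 on the positive controls and 10 to 34 on Tbp alone. For the interaction it was 65 to 5 as deposited, 11 to 28 with median centring, 20 to 26 with quantile normalization and 7 to 2 on the positive controls. Relb, Tnfaip3 and Birc3 rose in KO kidneys under all 6 scalings, with log2 changes of 1.21 to 2.29, 0.86 to 1.94 and 1.20 to 2.29. Nfkb1, Rela, Nfkb2 and Nfkbia rose under 5 of 6, with median centring the exception, where their changes were 0.25, 0.02, 0.61 and 0.22. For KO NTS against WT NTS, Tnfaip3 passed under all 6 (0.55 to 1.44), Nfkb1 and Birc3 under 5, Rela and Relb under 4, and Nfkb2 and Nfkbia under 0.

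**Figure D3:**
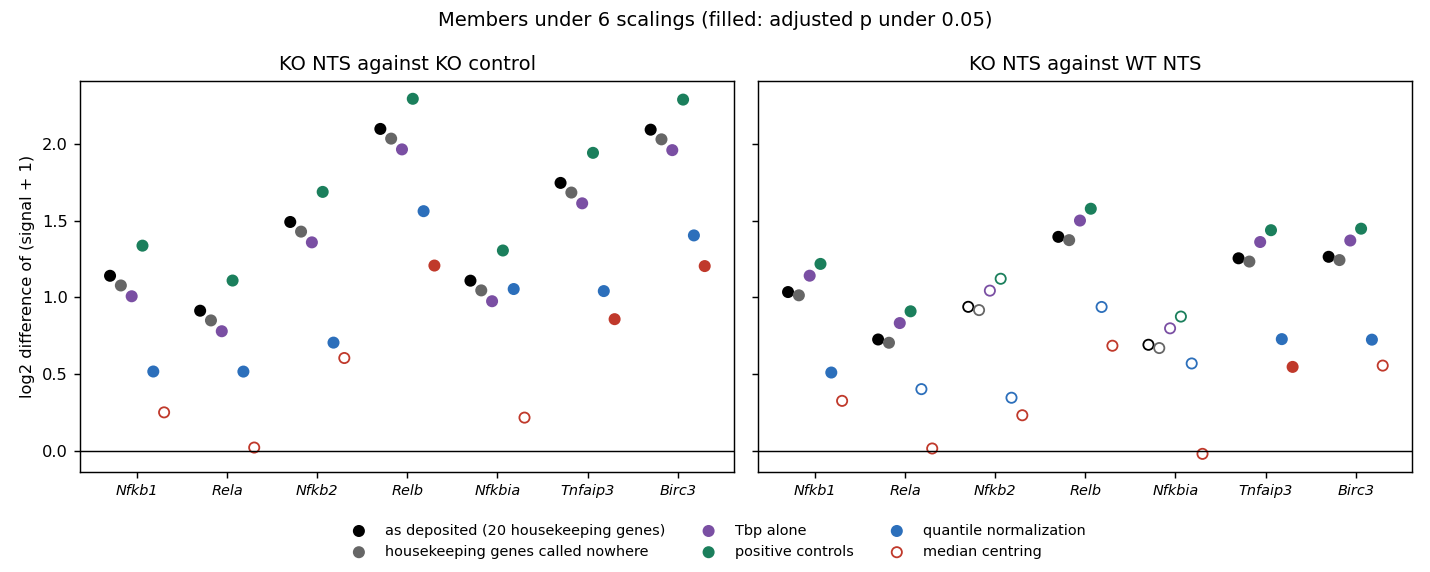
Log2 difference of each gene under 6 scalings of the samples, for KO NTS against KO control (left) and KO NTS against WT NTS (right). Filled points passed an adjusted p of 0.05; median centring (red) gives the lowest value for every gene, and Rela then lies at 0.02 on both sides.

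The change of 1 member relative to another within a sample does not depend on a scaling factor per sample. The differences below are log2 values of 1 probe minus another in the same kidney, so only their shift between groups has a meaning. Rela had the smallest change of the members in KO kidneys (log2 0.91). Any other member over Rela therefore shifts upward there on average, and the size of that shift restates the fitted changes. How many other panel genes separate from Rela without overlap was not counted. Relb over Rela was -1.87, -1.49 and -1.91 in KO control 1, 2 and 3 and -0.77, -0.58 and -0.37 in KO NTS. The groups did not overlap, and the mean shift was 1.18. In WT NTS it was -0.52, -1.59 and -1.60, against -1.38, -1.99 and -1.74 in WT control, so WT NTS 1 lay in the KO NTS range and the other treated kidneys in the control range.

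Birc3 over Rela shifted by 1.18 in KO kidneys, by 0.62 in WT kidneys and by 0.54 between KO NTS and WT NTS, and in each case the groups did not overlap. Its values were -2.49, -2.43 and -2.15 in WT control, -1.51, -1.85 and -1.84 in WT NTS, -2.40, -2.51 and -2.22 in KO control and -1.41, -1.13 and -1.04 in KO NTS. Tnfaip3 over Rela shifted by 0.83 in KO kidneys and by 0.53 between the treated groups, also without overlap. Nfkb2 over Nfkb1 shifted by 0.58 in WT kidneys without overlap, by 0.35 in KO kidneys with overlap, and by -0.10 between the treated groups. Without WT NTS 1 its shift in WT kidneys was 0.36. Nfkbia over Rela overlapped in all 4 comparisons, with shifts from -0.53 to 0.20. Over 5 pairs and 4 comparisons, 20 exact two-sided permutation tests were run. With 3 kidneys against 3 the smallest p they can give is 0.1, which every comparison without overlap reached (0.286 after Benjamini-Hochberg adjustment), so no shift could pass 0.05.

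**Figure D4:**
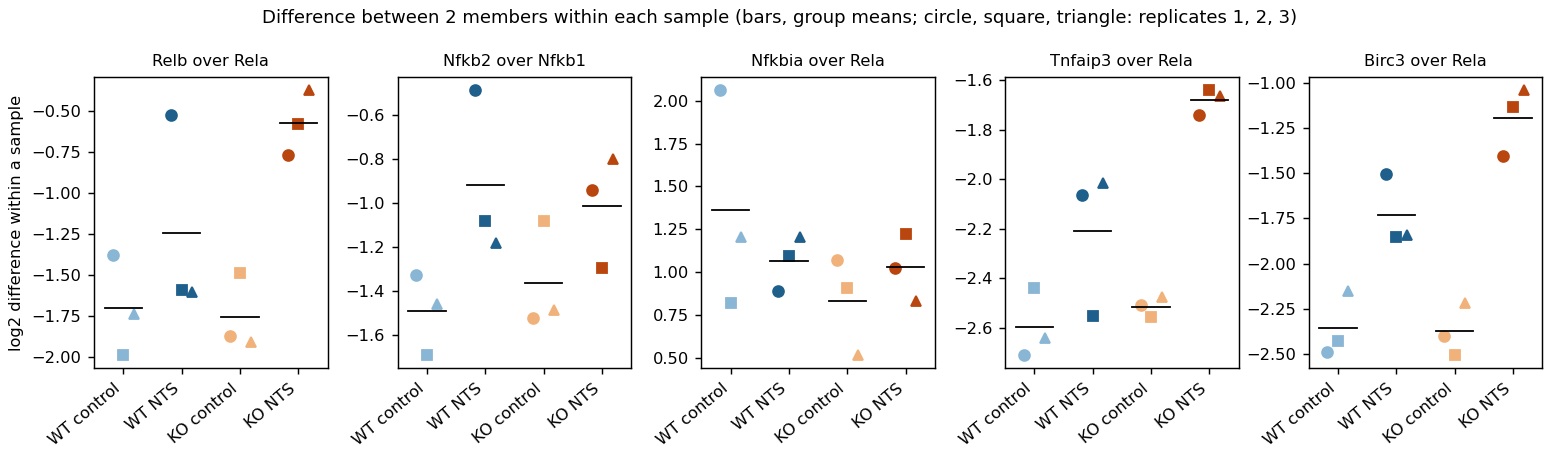
Log2 signal of 1 member minus another within each kidney, by group, with 1 symbol per replicate and bars for group means. KO NTS kidneys lie above KO control without overlap for Relb, Tnfaip3 and Birc3 over Rela, with mean shifts of 1.18, 0.83 and 1.18, and the Nfkbia over Rela groups overlap. Rela had the smallest change of the members in KO kidneys, so a mean shift upward over Rela is built in there. The share of panel genes that separate from Rela in this way was not counted.

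Other genes of the pathway were read from 4 lists, each without the 7 members. Of 6 further Rel and IkB family genes 1 was on the panel, Nfkbie, which encodes the inhibitor IkBε. It rose 3.70-fold in KO kidneys (adjusted p = 0.00223), was 2.22-fold higher in KO NTS than in WT NTS (adjusted p = 0.0440) and had a log2 change of 0.66 in WT (adjusted p = 0.354). Of 34 listed kinases and adaptors 11 were on the panel. In KO kidneys 4 of 11 rose and 1 fell, close to the panel as a whole, where 39.6% of genes rose and 8.57% fell. The list median there was 0.21 against 0.42 for all genes. In WT kidneys 0 passed, where 7.98% of all genes did. The 4 that rose in KO kidneys were Syk, a kinase of Fc and lectin receptors (log2 change 2.03), Ripk3, a kinase of necroptosis (1.61), Traf1, an adaptor of TNF receptors (1.48), and Myd88, the adaptor of Toll-like and interleukin-1 receptors (1.05). Chuk, the IKKα kinase, fell by 0.63 on the log2 scale (adjusted p = 0.0137). Ikbkb, the IKKβ kinase, had a log2 change of 0.21 in KO (adjusted p = 0.355) and -0.32 in WT (adjusted p = 0.313). Syk, Ripk3, Traf1 and Myd88 were also higher in KO NTS than in WT NTS, by 2.69-, 2.13-, 2.12- and 1.62-fold. These 4 of 11 were close to the panel as a whole, where 31.2% of genes were higher. The list median for that comparison was 0.38 against 0.45 for all genes.

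Of 33 listed ligands and receptors that activate NF-kB, 23 were on the panel and 20 tested. In KO kidneys 12 of 20 rose and 0 fell, where 39.6% of all genes rose (median 0.96 for the list and 0.42 for all genes). In WT kidneys 0 passed, where 7.98% of all genes did (medians 0.21 and 0.08). Between treated groups 10 of 20 were higher in KO, where 31.2% of all genes were (medians 0.82 and 0.45). Both TNF receptors were among the 10. Tnfrsf1a went from 981 ± 53.7 to 2014 ± 213 in KO kidneys and was at 1194 ± 338 in WT NTS (KO over WT 1.72-fold, adjusted p = 0.00699). Tnfrsf1b was 2.89-fold higher in KO NTS (adjusted p = 0.00500). The Toll-like receptors Tlr2, Tlr7 and Tlr8, which sense bacterial lipoproteins and single-stranded RNA, were 4.07-, 2.46- and 3.91-fold higher. Cd14, the lipopolysaccharide co-receptor and also 1 of the macrophage markers above, was at 198 ± 156 in WT NTS and 789 ± 234 in KO NTS (4.68-fold, adjusted p = 0.00577).

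Of 42 listed NF-kB target genes 34 were on the panel and 31 tested. In KO kidneys 18 of 31 rose and 4 fell, where 39.6% of all genes rose and 8.57% fell. In WT kidneys 5 rose and 0 fell, where 5.47% of all genes rose. Between treated groups 14 were higher and 1 lower in KO, where 31.2% of all genes were higher and 2.36% lower. The list medians were 1.07, 0.19 and 0.78, against 0.42, 0.08 and 0.45 for all genes. Ccl20, which attracts Th17 cells, was 6.81-fold higher in KO NTS than in WT NTS (adjusted p = 0.00356). The neutrophil attractants Cxcl2 and Cxcl5 were 4.61- and 5.23-fold higher. In WT NTS 1, 2 and 3 Cxcl2 was at 40.8, 14.6 and 17.5 and Cxcl5 at 114, 32.3 and 22.3. The background floors of these kidneys were 11.32, 10.02 and 12.35, so these folds rest partly on values near the floor. Lif, an interleukin-6 family cytokine, Csf1, the macrophage growth factor, and Cd80, a co-stimulatory molecule, were 4.70-, 3.48- and 3.37-fold higher. The 4 that fell in KO kidneys were Ccl21a, a lymphoid chemokine, Cxcl12, a stromal chemokine, Nos2, the inducible nitric oxide synthase, and Vegfa, a vascular growth factor. Vegfa was also the 1 target lower in KO NTS than in WT NTS. Traf1 counts in this list and in that of the adaptors. The lists were chosen with earlier results of these data known, so their counts are a description.

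**Figure D5:**
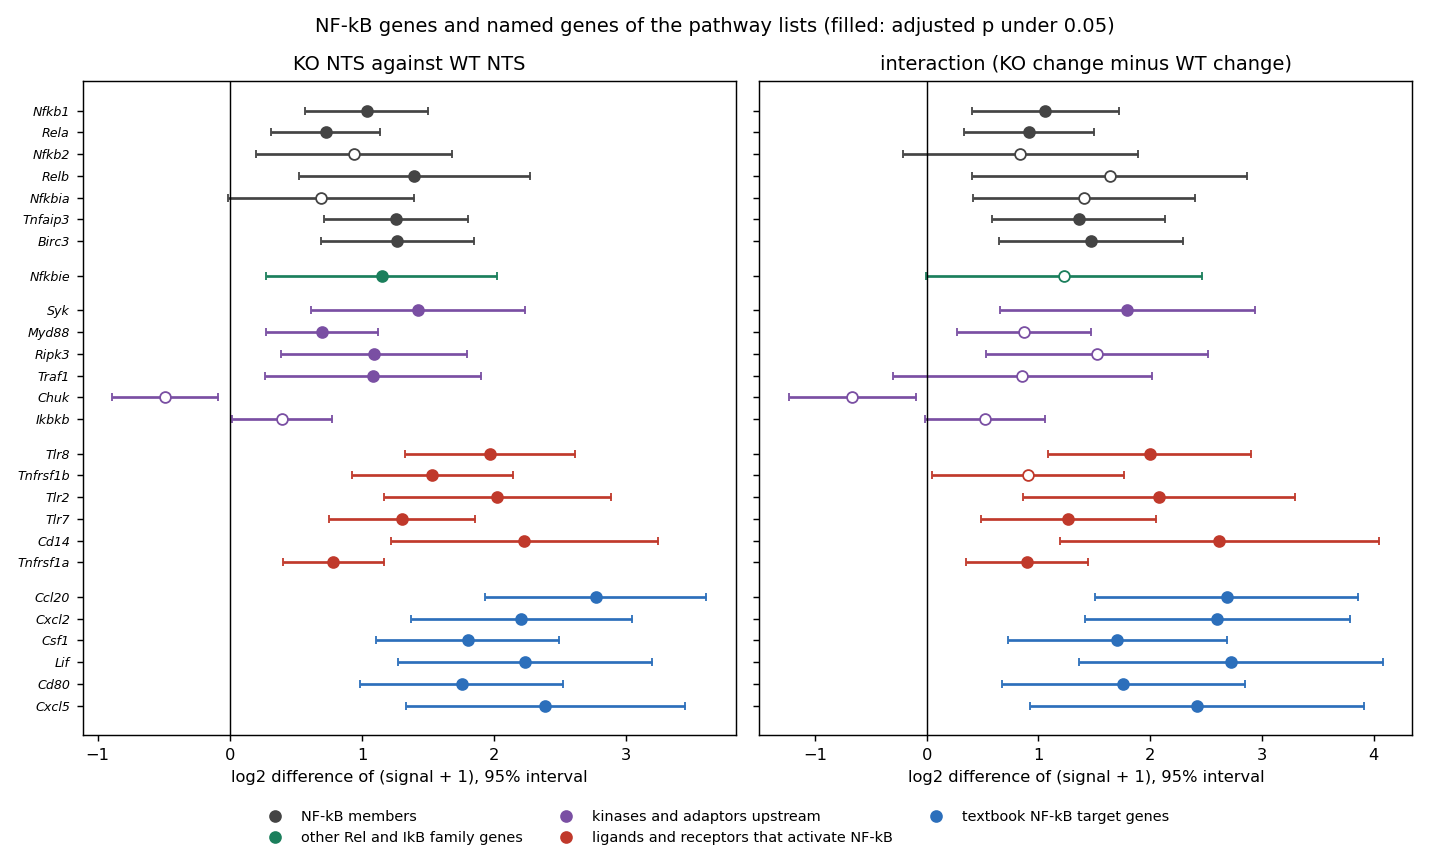
Log2 difference with 95% interval for the 7 genes and the named genes of the pathway lists, for KO NTS against WT NTS (left) and for the interaction (right), with filled points at an adjusted p under 0.05. On the left 5 of 7 members are filled and Chuk is the gene below 0, and on the right 4 of 7 members are filled.

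For each member, the 2 other genes with the most similar log2 signal over the 12 kidneys were looked up, which describes a shared pattern over the same samples and groups. Relb was closest to Myd88 (Pearson r = 0.991) and the tropomyosin gene Tpm1 (0.975). Nfkb2 was closest to Nfkbie (0.980) and Il1rn, the interleukin-1 receptor antagonist (0.979). Tnfaip3 was closest to the adhesion molecule Icam1 (0.983) and Tmem173, the DNA-sensing adaptor STING (0.979). Birc3 was closest to the transcription factor Stat3 (0.979) and the housekeeping gene Stk11ip (0.975). Rela was closest to Cd14 (0.978) and the class I gene H2-K1 (0.977), and Nfkb1 to the interferon receptor Ifnar1 (0.968) and Csf1 (0.964). Nfkbia had the weakest matches, the protease receptor F2rl1 (0.927) and the integrin Itga2 (0.912). Among the members, the correlations without Nfkbia ran from 0.88 to 0.97, and those with Nfkbia from 0.53 to 0.76. These points share the group differences and the sample scaling.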

How the data were processed

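The deposited table holds a normalized signal per gene, made by the authors; software and instrument are not given in the sources used here. Per the file headers its rows are 750 endogenous and 20 housekeeping genes, 8 negative and 6 positive controls, and a deposited column with the percent of samples past a detection threshold, which no step used. Tested on the values, the signal was scaled on the housekeeping genes, lay at or above the geometric mean of each sample's negative controls (10.02 to 15.11), and was a whole multiple of 1 step per sample in 100% of values above that floor and under 300 (tolerance 0.0055 of a step plus rounding). Count models were not run, since each sample had 53 to 140 genes at that floor. Both deposited tables agreed (largest difference 0).

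limma 3.58.1 in R 4.3.3 was fitted to log2(signal + 1) of the 677 genes that reached a signal of 20 in 3 or more samples, with 1 mean per group over 12 samples and a variance trend. P-values were two-sided and adjusted over all genes in each of 5 comparisons, with a threshold of 0.05. Replicates were taken as separate mice from the design text. Exact permutation tests used scipy 1.17.1. Steps were tested on simulated data. The members and gene lists were chosen with earlier results of these data known. Named pathway genes were, per list, the 6 tested genes with the smallest p in KO NTS against WT NTS. Other genes outside these were named from counts after their values were seen. The alternatives changed the pseudocount, the filter, the scaling (5 others) and the variance model, or used the groups compared alone, the replicate number as a block, or fewer samples. Same-numbered samples did not deviate together (correlations from -0.30 to 0.39 between groups), so the numbers were not taken to pair animals.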

Additional observations from a re-analysis of the deposited data

Results flagged for a closer look

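The response to serum differed by genotype, in the interaction test, for several genes described above. All values are log2 changes in KO minus those in WT, and calls are at an adjusted p under 0.05 with limma. Among the members these were Nfkb1 (1.06), Rela (0.91), Tnfaip3 (1.36) and Birc3 (1.47). Among the named pathway genes they were the kinase gene Syk (1.80) and the receptor genes Tlr8 (1.99), Tlr2 (2.08), Tlr7 (1.27), Cd14 (2.62) and Tnfrsf1a (0.90). Among the named target genes they were Ccl20 (2.68), Cxcl2 (2.60), Csf1 (1.71), Lif (2.72), Cd80 (1.76) and Cxcl5 (2.42). In the untreated groups Ccl20, Cxcl2 and Cxcl5 averaged a signal of 14.8 to 21.9, near the background floor. Of the 31 targets tested, 8 passed with a larger change in KO, including Cxcl1 and Myc, where 9.6% of all genes did. Vegfa was the 1 target that passed in the other direction. Of the markers, Egf (-2.42), Fbp1 (-1.73) and Kdr (-1.34) passed in that direction too, and 3 of 9 macrophage markers with a larger change in KO. Nfkbie, Ripk3, Myd88, Traf1, Chuk, Ikbkb and Tnfrsf1b, also named, did not pass. Of all genes tested 10.3% passed as deposited, and 0 genes with scaling on Tbp alone. Apart from Cxcl1, Myc, Vegfa, Egf, Fbp1 and Kdr, the named genes outside the members were picked by their p in KO NTS against WT NTS. The interaction uses the same treated kidneys, so its calls for them are not independent of that choice. Without WT NTS 2, WT NTS 3, KO NTS 1, KO NTS 3, WT control 1, WT control 3 or any 1 KO control, 0 of all genes passed this test.

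For Nfkbia every treated WT kidney lay below the WT control mean and every treated KO kidney above the KO control mean on the log2 scale. The WT direction rested on WT control 1: without it the WT log2 change was 0.15. Its interaction of 1.41 missed the threshold (adjusted p = 0.0713), and the estimate was 0.96 without WT control 1. Ikbkb showed the same opposite directions, with an interaction of 0.52 (adjusted p = 0.185).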

How the results depend on the processing

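With 3 mice per group, single kidneys and the scaling limit these results. The alternatives without both WT NTS 1 and WT control 1, and scaling on the 14 housekeeping genes called in no comparison, were chosen after seeing the data. For KO NTS against KO control, 7 of 7 members passed under each alternative except median centring (3) and the omission of KO control 3 (6); the range with 1 kidney left out was 6 to 7. For KO NTS against WT NTS, 5 passed as reported, 1 with median centring, 3 with quantile normalization and 3 to 6 with 1 kidney left out. Over the alternatives that did not leave out a single kidney, the count ran from 1 to 7. For the interaction, 4 passed as reported, 0 with median centring, positive controls or Tbp alone, 1 with quantile normalization, 2 without a filter or without a variance trend, 7 without both WT NTS 1 and WT control 1, and 0 to 7 with 1 kidney left out. With the replicate block the counts were 7, 5 and 5, and it changed no other count of members. In WT kidneys and in untreated kidneys 0 members passed under every alternative run. The edgeR alternative was not run, because values at the floor are not whole counts.

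Some estimates changed sign. In WT after serum, Nfkb1 was -0.197 with median centring, -0.233 on Tbp, -0.0521 with quantile normalization and -0.174 without both kidneys, and Rela was -0.275, -0.311, -0.0648 and -0.0838, and -0.0271 on the 14 housekeeping genes. Nfkbia was 0.0546 without both kidneys. With 1 kidney left out the WT ranges were -0.0910 to 0.233 (Nfkb1), -0.184 to 0.1004 (Rela), -0.0806 to 0.737 (Relb) and -0.646 to 0.152 (Nfkbia). Nfkbia in KO NTS against WT NTS was -0.0194 with median centring. In untreated kidneys, Nfkb1 was 0.0799 and Tnfaip3 0.0032 on the positive controls, Relb was 0.0220 without both kidneys, and with 1 kidney left out Nfkb1 ran from -0.119 to 0.0396 and Relb from -0.464 to 0.0220. Within-sample differences that changed sign with 1 kidney left out were, in untreated kidneys, Relb over Rela (-0.199 to 0.109), Nfkb2 over Nfkb1 (-0.0117 to 0.212) and Birc3 over Rela (-0.0967 to 0.0828); between treated groups, Nfkb2 over Nfkb1 (-0.229 to 0.118) and Nfkbia over Rela (-0.133 to 0.0630); and in WT after serum, Nfkbia over Rela (-0.568 to 0.0520). The cause of these changes was not tested.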

Other observations

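The high Nfkbia value of WT control 1 came with high values of a few other genes in the same untreated kidney, chosen after their values were seen. F2rl1 and Itga2 were found by their correlation with Nfkbia over kidneys that include this one, so their high values here are not independent. The share of panel genes highest in this kidney was not counted. F2rl1, the protease-activated receptor gene closest to Nfkbia in pattern, was at 1320.1 there and at 397 and 866 in the other WT controls. Itga2, an integrin chain, was at 149 against 17.4 and 30.4, and Ptgs2, the inducible prostaglandin synthase, at 470.0 against 29.9 and 95.3. Relb was also highest in that untreated kidney (288), while Tnfaip3 (114) and Birc3 (133) were close to the other WT controls.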
